A study of Gallus gallus with 2 samples.

Results

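The enzymes that turn glucose into pyruvate and pyruvate into lactate were examined in RNA-seq libraries of chicken cells labelled as spermatogenic stem cells (SSCs). The 10 genes were HK1, GPI, PFKL, ALDOC, TPI1, GAPDH, PGK1, ENO1, LDHA and LDHB, taken by gene name from the 26656 gene models listed in the deposited tables, and each name matched 1 model. The cells came from testes of embryos in eggs incubated for 18.5 days and were cultured after collagenase and trypsin digestion. The shLSD1 group had received a vector that interferes with LSD1, the enzyme that takes methyl groups off histone H3 lysine 4, and the Blank group carries a label that reads as no treatment. Strain, number of embryos, time after transfection and vector backbone were not given in the labels for these cells. Each group had 1 library, so there was no replicate spread to hold a difference against, and every comparison is of 2 libraries. No control vector is named for Blank, so that the interference, the transfection and the preparation of the cells cannot be told apart in these data.

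Glycolysis splits glucose in a first stage that spends ATP (HK1 through TPI1) and recovers ATP and NADH in a second stage (GAPDH through pyruvate kinase). Lactate dehydrogenase then passes hydrogen between NADH and pyruvate, which restores the NAD+ that GAPDH needs. In the mammalian testis, Sertoli cells are known for releasing lactate, which germ cells use as fuel, and stem cells of the germline are often described as relying more on glycolysis than their differentiating descendants.

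The libraries held 8245826 reads on genes in shLSD1 and 8731455 in Blank. LSD1 itself, listed as KDM1A (ENSGALG00000000840), had 0 reads in shLSD1 and 0 in Blank, as did the assembled model over it on the same strand, so the interference could not be checked in these counts. The germ cell markers DDX4 and DAZL had 11 and 5 reads in shLSD1, and 23 and 8 reads in Blank. NANOG, on the same list and used in the paper as a pluripotency marker, had 0 in each library. These 3 markers of the list were thus at or near 0 in cells labelled as SSCs. PIWIL1, TDRD9, TDRD15, MAEL, SYCP3, KIT and SALL4 were low too, with at most 7 reads in shLSD1 and 17 in Blank. The assembled model over SYCP3 on the same strand had 250 reads in shLSD1 and 309 in Blank, so the level of SYCP3 is uncertain. Other markers of the list had more reads, with 382 for DMRT1, 279 for ZBTB16, 192 for GFRA1 and 115 for NANOS3 in shLSD1, against 331, 219, 149 and 92 in Blank. Of 18 germ cell markers listed, 15 were found, and they summed to 2580 reads in shLSD1 and 2203 in Blank, of which UCHL1 held 1572 in shLSD1 and 1351 in Blank. The 6 Sertoli markers found summed to 1649 reads in shLSD1 and 1359 in Blank, with AMH, WT1 and GATA4 listed at 0 and SOX9 not analysed here. The 7 peritubular and fibroblast markers found summed to 5437 reads in shLSD1 and 6703 in Blank, with DCN, COL1A2 and PDGFRA listed at 0. The libraries are of bulk RNA, in which fewer cells of a type and less RNA per cell cannot be told apart.

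GAPDH and ENO1 were higher in shLSD1, while HK1, GPI, PFKL, ALDOC and TPI1 differed little between the libraries and LDHB was slightly lower. GAPDH and ENO1 belong to the second stage of glycolysis, but PGAM1 of that stage, not a member, was level (log2 ratio -0.0054). PGK1 and PKM, also of that stage, are uncertain in level. GAPDH was 1.24-fold and ENO1 1.40-fold higher. Of the 8 members with reads, 0 were 2-fold higher in shLSD1 and 0 were 2-fold lower, against 2.21% and 1.82% of the 12081 genes that had at least 20 reads over the 2 libraries. A difference of at least 25% upward was reached by 1 member, ENO1, against 15.9% of those genes, with GAPDH just under it and past it under 2 other scalings (log2 ratios of 0.33 with edgeR TMM and 0.34 with upper-quartile scaling), and one of at least 20% downward by 0 members, against 16.5%. PGK1 and LDHA were listed at 0 reads in each library.

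Levels of different genes were compared in the deposited FPKM, in which reads are divided by model length and library size. GAPDH, which oxidises glyceraldehyde 3-phosphate and is often used as a reference gene, had 14195 FPKM in shLSD1 and 11389 FPKM in Blank. ENO1, the enolase that makes phosphoenolpyruvate, had 4108 FPKM in shLSD1 and 2935 FPKM in Blank. ALDOC, the aldolase that splits fructose 1,6-bisphosphate, came next with 1902 FPKM in shLSD1 and 1786 FPKM in Blank. These members thus followed each other in the same order in each library. TPI1, which interconverts the triose phosphates, had 984 FPKM in shLSD1 and 914 FPKM in Blank. GPI, which turns glucose 6-phosphate into fructose 6-phosphate, had 583 FPKM in shLSD1 and 538 FPKM in Blank. HK1, the hexokinase that traps glucose in the cell, had 243 FPKM in shLSD1 and 235 FPKM in Blank. The order of the middle members was also the same in the libraries. LDHB, the lactate dehydrogenase subunit typical of heart, had 141 FPKM in shLSD1 and 152 FPKM in Blank. PFKL, the phosphofructokinase subunit typical of liver, had 132 FPKM in shLSD1 and 130.0 FPKM in Blank. LDHB and PFKL were the only neighbours in the order that were not separated, and only in shLSD1, where the exact Poisson 95% intervals met (137 to 145 FPKM for LDHB and 127 to 137 FPKM for PFKL). In Blank the same intervals ran from 148 to 157 FPKM for LDHB and from 126 to 135 FPKM for PFKL. Intervals here cover counting error only, since each group had 1 library. They take each read as a separate molecule, so that copies made by PCR would make them too narrow.

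**Figure D1:**
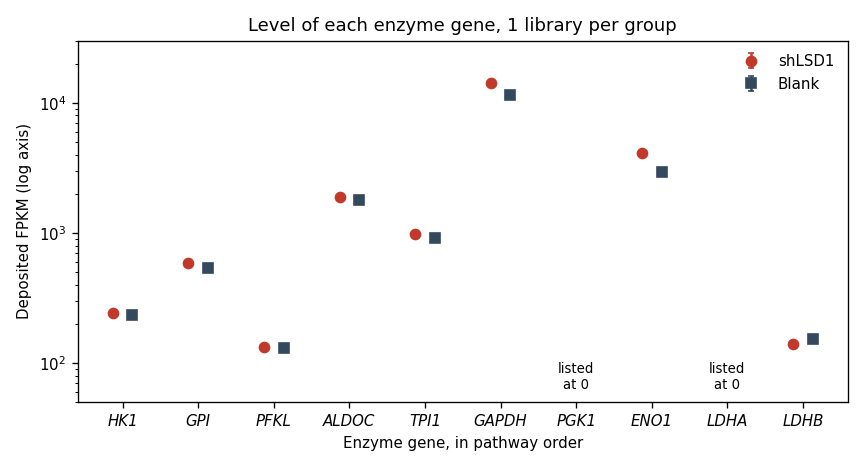
Deposited FPKM of each enzyme gene on a log axis, in pathway order, in shLSD1 (circles) and Blank (squares), 1 library each, with exact Poisson 95% intervals of the reads that are mostly smaller than the symbols. GAPDH stands highest at 14195 in shLSD1 and 11389 in Blank, LDHB is the only gene whose symbol is lower in shLSD1, and PGK1 and LDHA are listed at 0.

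GAPDH (ENSGALG00000014442) lies on chromosome 1, plus strand, at 76434647 to 76437498 by the deposited coordinates, whose chicken genome build is not given in the sources used here. It had 141694 reads in shLSD1 and 120607 in Blank, which is 1.72% of all reads in shLSD1 and 1.38% in Blank. It ranked 2 by reads among all models in shLSD1 and 3 in Blank. The log2 ratio of shLSD1 to Blank, from reads over the library totals with 0.5 added to each count, was 0.32 with a Clopper-Pearson 95% interval of 0.30 to 0.33. No model overlaps GAPDH on either strand in the files.

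ENO1 (ENSGALG00000002377) lies on chromosome 21, minus strand, at 3215099 to 3227491. It had 58777 reads in shLSD1 and 44540 in Blank, or 0.713% of all reads in shLSD1 and 0.510% in Blank. ENO1 had the highest ratio of the members, with a log2 ratio of 0.48 (0.46 to 0.50). It ranked 7 by reads in shLSD1 and 14 in Blank. Assembled models on the opposite strand lie within it. They are listed with 9 reads in shLSD1 and 20 in Blank in all. Since counting is not stated to use strand, the number of opposite-strand reads within the ENO1 count cannot be told from this.

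In the first stage of glycolysis the libraries were close. GPI (chromosome 11, 10450875 to 10471700, plus strand) had 9787 reads in shLSD1 and 9589 in Blank, a log2 ratio of 0.11 (0.071 to 0.15). TPI1 (chromosome 1, 76754054 to 76757054, plus strand) had 10620 reads in shLSD1 and 10468 in Blank, a log2 ratio of 0.10 (0.064 to 0.14). These were the next highest ratios, at 8.08% higher for GPI and 7.43% higher for TPI1 in shLSD1. ALDOC (chromosome 19, 5734740 to 5737598, minus strand) had 22802 reads in shLSD1 and 22714 in Blank, a log2 ratio of 0.088 (0.062 to 0.11). HK1 (chromosome 6, 10469531 to 10496298, plus strand) had 9101 reads in shLSD1 and 9322 in Blank, a log2 ratio of 0.048 (0.0061 to 0.090). PFKL (chromosome 9, 3881630 to 3887092, plus strand) had 3110 reads in shLSD1 and 3248 in Blank, a log2 ratio of 0.020 (-0.051 to 0.091). For PFKL, the phosphofructokinase that commits sugar to glycolysis, the ratio was close to 0 and its counting interval included 0, so no direction could be given. A model on the opposite strand within ALDOC is listed at 0 reads in each library.

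LDHB (ENSGALG00000013257, chromosome 1, 67177978 to 67190068, plus strand) was the only member lower in shLSD1. It had 4396 reads in shLSD1 and 5040 in Blank, a log2 ratio of -0.11 (-0.17 to -0.056). Its partner LDHA (ENSGALG00000006300, chromosome 5, 11936824 to 11942582, plus strand), the subunit typical of muscle, is listed at 0 reads in shLSD1 and 0 in Blank. The share of LDHA in the lactate dehydrogenase mRNAs could therefore not be measured, and the tables list 0% in each library per length, by reads, or with the reads of an overlapping model added.

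PGK1 (ENSGALG00000007936, chromosome 4, 12898194 to 12909392, plus strand), which makes the first ATP of glycolysis, likewise had 0 reads listed in shLSD1 and in Blank. By counting alone 0 reads would allow up to 3 reads, or 0.364 CPM (the reads scaled to a common library total) in shLSD1 and 0.344 CPM in Blank. An assembled model of the same strand covers LDHA from end to end, and another covers PGK1. The model over LDHA, annotated in the files with lactate/malate dehydrogenase domains, had 0 reads in shLSD1 and 0 in Blank. The model over PGK1, annotated as phosphoglycerate kinase, had 1 read in shLSD1 and 0 in Blank. Such listings were frequent: of 2615 protein-coding genes with an assembled model on the same strand at a reciprocal overlap of at least 90%, 64.3% were at 0 in each library, against 14.2% of 8665 with no assembled model on their strand. The levels of LDHA and PGK1 can thus not be read from these tables.

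By counting error alone, the intervals of 6 members (GAPDH, ENO1, GPI, TPI1, ALDOC and HK1) lay above 0, that of LDHB lay below 0 and that of PFKL included 0. With DESeq2 size factors 5 lay above 0. Over the 12081 genes with at least 20 reads, 12.9% had an interval above 0 and 15.4% below 0. The members have many reads and so narrow intervals, and at like depth the shares were larger. Of 2929 genes with at least 1000 reads, 23.0% lay above 0 and 28.4% below it, and of 232 genes with at least 10000 reads, 47.8% lay above and 30.2% below. The 6 members above 0 are the 6 with at least 10000 reads, a class in which an interval above 0 was common. The size of the ratio set GAPDH and ENO1 apart from the other members. Among the 2929 genes with at least 1000 reads, 47 genes (1.60%) had a higher ratio than ENO1 and 122 (4.17%) a higher one than GAPDH, while 633 (21.6%) had a higher ratio than GPI. Among the 232 genes with at least 10000 reads, 3 exceeded ENO1 and 12 exceeded GAPDH. The central 95% of log2 ratios in that class ran from -0.38 to 0.47, so that ENO1 lay just above it and GAPDH within it.

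**Figure D2:**
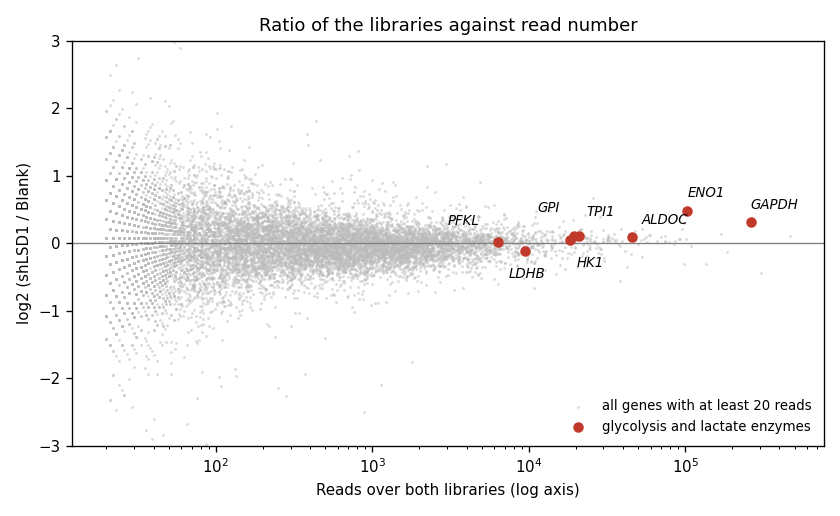
Log2 ratio of shLSD1 to Blank against reads over both libraries (log axis) for genes with at least 20 reads (grey) and the 8 enzyme genes with reads (red), with 11 genes beyond 3 on the log2 scale outside the axis. ENO1 at 0.48 and GAPDH at 0.32 lie toward the upper edge of the abundant genes, and the other 6 members lie between -0.11 and 0.11.

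The members together took 3.16% of all reads in shLSD1 and 2.58% in Blank, a log2 ratio of 0.29 (0.28 to 0.30). Of the difference of 5737 CPM, GAPDH held 3371 CPM and ENO1 2027 CPM, or 58.8% and 35.3% of it. Without GAPDH and ENO1, a sum added after the data were seen, the other 8 members took 0.725% of reads in shLSD1 and 0.692% in Blank, a log2 ratio of 0.069 (0.053 to 0.085). The median log2 ratio of the 8 members with reads was 0.096, against -0.011 over all genes with at least 20 reads and 0.032 over those with at least 10000.

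Since GAPDH often serves as a reference gene, the other members were also set against it within each library, a ratio that does not depend on how libraries are scaled. ENO1 had 0.289 FPKM per FPKM of GAPDH in shLSD1 and 0.258 in Blank, a log2 difference of 0.17 (0.15 to 0.19, exact conditional 95% interval of the odds ratio of reads). LDHB had 0.00993 FPKM per FPKM of GAPDH in shLSD1 and 0.0134 in Blank, a log2 difference of -0.43 (-0.49 to -0.37). On this scale ENO1 alone was higher in shLSD1. The differences of the remaining 5 members lay between -0.30 for PFKL and -0.20 for GPI. The direction for HK1, GPI, ALDOC and TPI1 thus depended on the reference: above 0 relative to the library total and below 0 relative to GAPDH. This follows from the log2 ratio of GAPDH itself, 0.32, since any gene with a ratio between 0 and that value falls below 0 on this scale.

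**Figure D3:**
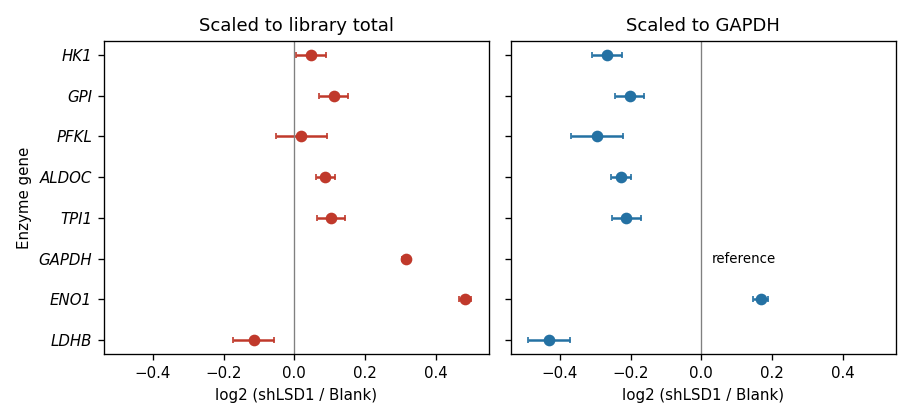
Log2 ratio of shLSD1 to Blank with 95% counting intervals for the 8 enzyme genes with reads, in pathway order, scaled to the library total (left) and to GAPDH within the same library (right). On the left ENO1 (0.48) and GAPDH (0.32) stand apart from the rest, and on the right ENO1 (0.17) is the only gene above 0 and LDHB (-0.43) is the lowest.

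Other isoenzymes of the phosphofructokinase and enolase steps were listed with few reads beside the member. Of the other hexokinases, HK2 was listed at 0, while the assembled model over it on the same strand had 338 reads in shLSD1 and 381 in Blank, so its level is uncertain. HKDC1, which lies 11.2 kb from HK1 on chromosome 6, had 12 reads in shLSD1 and 9 in Blank, so that these adjacent paralogs differed widely in level. PFKL made up 99.5% of the listed phosphofructokinase FPKM in shLSD1 and 99.1% in Blank, with PFKP at 17 reads in shLSD1 and 34 in Blank. PFKM was listed at 0. Assembled models on the same strand overlap PFKM (5 reads in shLSD1 and 10 in Blank) and PFKP (10 in shLSD1 and 11 in Blank). The levels of PFKM and PFKP, and so these shares, are uncertain. ENO1 made up nearly all of the listed enolase FPKM, since ENO2, the neuronal enolase, had 3 reads in shLSD1 and 11 in Blank and ENO4 had 12 in shLSD1 and 20 in Blank. An assembled model on the same strand, listed at 0 reads in each library, overlaps ENO2, so the level of ENO2 is uncertain too. ENO2 lies 9.91 kb from TPI1, and GAPDH lies 317 kb from TPI1 on the same chromosome, so that genes of the pathway listed at very different levels sit in this stretch of chromosome 1.

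The ratios of nearby genes were mixed. Within 100 kb of GAPDH there were 10 genes with at least 20 reads, of which 1 had an interval above 0 and 1 below 0, with a median log2 ratio of 0.14 against 0.32 for GAPDH itself. Within 100 kb of ENO1 there were 5 such genes, again 1 above and 1 below, with a median log2 ratio of -0.13 against 0.48 for ENO1 itself. Over all genes with at least 20 reads, 12.9% had an interval above 0 and 15.4% below, so these few neighbours do not stand out.

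Among the other glycolytic enzymes, PGAM1, the phosphoglycerate mutase between PGK1 and ENO1, had 1502 FPKM in shLSD1 and 1505 FPKM in Blank, a log2 ratio of -0.0054 (-0.042 to 0.031). The step just before enolase was thus level between the libraries while ENO1 differed. Of the 22 other glycolytic enzymes listed, 15 were found by name and 7 had at least 20 reads. Of these 7, 2 had ratios above 0 and 5 below, with 1 interval above 0, 3 below and a median log2 ratio of -0.17. The median was thus on the other side of 0 from that of the members. With the reads of assembled models on the same strand added, it was -0.11. None of the 7 was 2-fold apart, beside 2.21% higher and 1.82% lower over all genes with at least 20 reads. Intervals of those genes lay above 0 in 12.9% and below in 15.4%. BPGM, which makes 2,3-bisphosphoglycerate, was lowest among those with at least 100 reads, at 1421 reads in shLSD1 and 1695 in Blank (-0.17, -0.27 to -0.069). PKM, the pyruvate kinase that ends glycolysis, had 25 reads in shLSD1 and 47 in Blank. It too is overlapped by an assembled model on its strand, which had 1 read in shLSD1 and 0 in Blank, so that the level of this enzyme is as uncertain as those of LDHA and PGK1.

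Carriers of glucose and lactate had ratios on either side of 0. Of 18 listed, 15 were found and 8 had at least 20 reads, with 3 intervals above 0, 1 below and 0 genes 2-fold apart and a median log2 ratio of 0.075. Over all genes with at least 20 reads, 12.9% of intervals lay above 0 and 15.4% below, and 2.21% of genes were 2-fold higher and 1.82% lower. SLC2A3, the glucose transporter GLUT3, had 7051 reads in shLSD1 and 6669 in Blank (log2 ratio 0.16, 0.11 to 0.21), and was named after its values were seen. SLC2A6 had the highest ratio with 86 reads in shLSD1 and 54 in Blank (0.75, 0.25 to 1.27). SLC16A3, the lactate exporter MCT4, had 1696 reads in shLSD1 and 2092 in Blank (-0.22, -0.31 to -0.13). An assembled model on the opposite strand overlaps SLC16A3, so that its count is uncertain. SLC2A1, the widespread glucose transporter GLUT1, was listed at 0, and the model over it had 43 reads in shLSD1 and 48 in Blank.

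Among regulators, EPAS1 and HIF1A, which encode hypoxia factors, were lower in shLSD1, while 5 of the 7 regulators with at least 20 reads had ratios above 0 and the list's median was 0.14. With the reads of assembled models on the same strand added, 11 regulators had at least 20 reads. Of these 11, 5 had ratios above 0 and 6 below, with 0 intervals above 0, 5 below and a median of -0.17. The sign of the median thus turned on those reads. EPAS1, which encodes HIF-2 alpha, had 151 reads in shLSD1 and 275 in Blank (log2 ratio -0.78, -1.08 to -0.49), though an assembled model on its strand makes the count uncertain. HIF1A, a transcription factor known to drive glycolytic genes including ENO1 and LDHA in mammals, had 6784 reads in shLSD1 and 9020 in Blank (-0.33, -0.37 to -0.28), and was named after its values were seen. A model on the opposite strand overlaps HIF1A too. Of 16 regulators listed, 7 had at least 20 reads, with 0 intervals above 0, 2 below 0 and 0 genes 2-fold apart, beside 12.9% above and 15.4% below over all genes. PPARGC1A, a coactivator for mitochondrial genes, had the highest ratio among those with at least 100 reads, at 89 reads in shLSD1 and 77 in Blank (0.29, -0.16 to 0.75). The hypoxia-induced genes outside glycolysis were split, with 8 genes of at least 20 reads, 2 intervals above 0 and 3 below. Each of the 8 had at least 1000 reads, a depth at which 23.0% of all genes lay above 0 and 28.4% below. With the reads of models on the same strand added, 14 of these genes had at least 20 reads, with 3 intervals above 0 and 5 below. ADM had 1916 reads in shLSD1 and 1850 in Blank (0.13, 0.040 to 0.23), and BNIP3L had 2452 reads in shLSD1 and 3120 in Blank (-0.26, -0.34 to -0.19).

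The routes that branch from glycolysis differed in the sign of their medians. The 4 pentose phosphate genes with at least 20 reads had ratios below 0 and a median log2 ratio of -0.069, with 2 of the 4 intervals below 0 and 2 including 0, where 28.4% of all genes with at least 1000 reads had an interval below 0. Transketolase, TKT, was lowest there with 551 reads in shLSD1 and 657 in Blank (-0.17, -0.34 to -0.0057), and TALDO1 highest with 3129 reads in shLSD1 and 3412 in Blank (-0.042, -0.11 to 0.028). An assembled model on the same strand overlaps TKT (2 reads in shLSD1 and 2 in Blank), so its count is uncertain. Of the genes that lead pyruvate into mitochondria, 9 had at least 20 reads, with 0 intervals above 0 and 2 below. Beside this, 12.9% of all genes with at least 20 reads had an interval above 0 and 15.4% below, and 1.82% were 2-fold lower. At 1000 reads or more the intervals were above 0 in 23.0% and below in 28.4%. PDP1, a phosphatase that switches pyruvate dehydrogenase on, was the only gene of all these lists past 2-fold, with 6 reads in shLSD1 and 24 in Blank (-1.83, -3.50 to -0.59), and a model on its strand overlaps it. PDK1, a kinase that switches the same complex off, had 296 reads in shLSD1 and 371 in Blank (-0.24, -0.47 to -0.019). MPC2, a subunit of the pyruvate carrier, had 122 reads in shLSD1 and 107 in Blank (0.27, -0.11 to 0.66). An assembled model on its strand, listed at 0 reads in each library, overlaps MPC2, so its count is uncertain too.

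The citric acid cycle had 11 genes with at least 20 reads, 0 intervals above 0 and 2 below, with a median of -0.035. The shares were 12.9% above and 15.4% below over all genes with at least 20 reads. They were 23.0% and 28.4% over those with at least 1000 reads, a depth that each of the 11 except OGDH reached. SUCLA2, a succinyl-CoA synthetase subunit, was lowest at 670 reads in shLSD1 and 935 in Blank (-0.40, -0.54 to -0.25), and IDH3G highest at 1016 reads in shLSD1 and 1012 in Blank (0.088, -0.039 to 0.22). Of the shuttles that carry NADH electrons into mitochondria, 4 genes had at least 20 reads, from GPD1L with 718 reads in shLSD1 and 858 in Blank (-0.17, -0.32 to -0.030) to GOT1 with 2220 reads in shLSD1 and 2257 in Blank (0.059, -0.026 to 0.14) among those with at least 100 reads. Glycogen enzymes gave 3 intervals above 0 and 2 below among 8 genes, with 6 ratios above 0 and a median of 0.098, close to the median of the members. PYGL, a glycogen phosphorylase, had 3939 reads in shLSD1 and 3692 in Blank (0.18, 0.11 to 0.24), and PHKB, a subunit of the kinase that activates phosphorylase, had 315 reads in shLSD1 and 410 in Blank (-0.30, -0.51 to -0.082). In gluconeogenesis 2 genes had at least 20 reads, of which G6PC3 had 764 reads in shLSD1 and 726 in Blank (0.16, 0.0077 to 0.30).

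**Figure D4:**
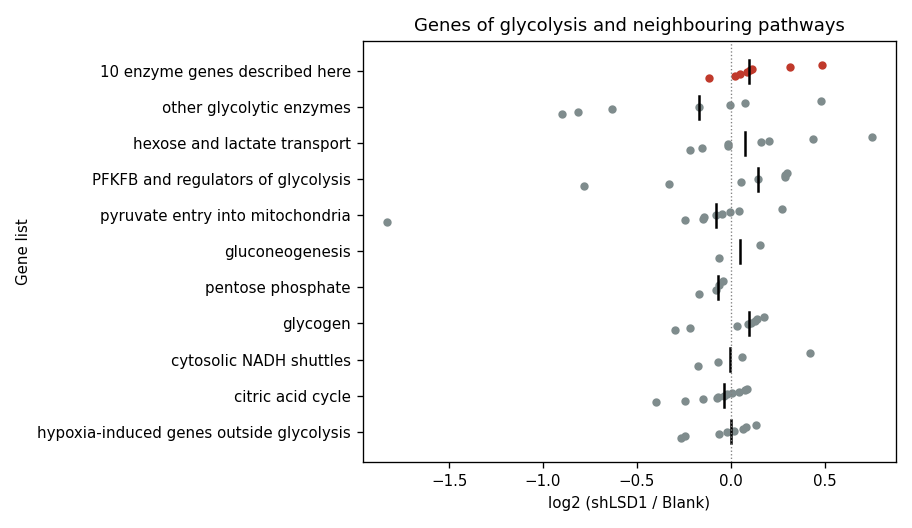
Log2 ratio of shLSD1 to Blank for each gene with at least 20 reads over both libraries in the 10 enzyme genes (red) and in each list of related genes (grey), with black bars at the medians. The median of the enzyme genes is 0.096, most of the other genes lie within 0.5 of 0, and PDP1 at -1.83 is the only gene past 2-fold.

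Over all lists of related genes without the 10 members, 149 genes were listed, 121 were found and 67 had at least 20 reads. Of these 67, 10 had an interval above 0 and 18 below, and their median log2 ratio was -0.016. Intervals below 0 were also more frequent than those above it over all genes, at 15.4% and 12.9% of those with at least 20 reads and 28.4% and 23.0% of those with at least 1000. Of the 121 genes found, 34 were listed at 0 in each library, and all 34 have an assembled model on the same strand. With the reads of such models added, an alternative chosen after the data were seen, 99 genes had at least 20 reads, with 11 intervals above 0, 25 below and a median of -0.047. On that scale MPC1, the partner of MPC2 in the pyruvate carrier, also passed 2-fold, at 24 reads in shLSD1 and 55 in Blank (log2 ratio -1.10, -1.87 to -0.40).

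Markers of testis cell types also differed between the libraries. The summed germ cell markers had a log2 ratio of 0.31 (0.23 to 0.39), the Sertoli markers 0.36 (0.26 to 0.47), the Leydig markers -0.32 (-0.48 to -0.16) and the peritubular and fibroblast markers -0.22 (-0.27 to -0.17). With the reads of assembled models on the same strand added, the Sertoli sum had 4663 reads in shLSD1 and 4593 in Blank, a log2 ratio of 0.10 (0.045 to 0.16), so that its difference rests largely on CLDN11, with 1544 reads in shLSD1 and 1255 in Blank. With those reads added, the log2 ratio of the germ cell sum was 0.26 (0.18 to 0.33). UCHL1, with 1572 reads in shLSD1 and 1351 in Blank, held most of the germ cell sum. Ratios were above 0 for 5 of the 7 germ cell markers with at least 20 reads, and below 0 for 2. These 2 were DDX4, with 11 reads in shLSD1 and 23 in Blank, and TDRD9, with 7 in shLSD1 and 17 in Blank. With model reads added, 5 of the 8 germ cell markers with at least 20 reads had ratios above 0. The other 3, among them SYCP3, had ratios below 0. The germ cell sum thus does not show whether RNA of germ cells differed between the libraries. The Leydig sum rests largely on CYP17A1, with 380 reads in shLSD1 and 551 in Blank. Of the 4 Leydig markers with at least 20 reads, 2 had ratios above 0 and 2 below. With model reads added, the Leydig sum had 1017 reads in shLSD1 and 1280 in Blank, a log2 ratio of -0.25 (-0.37 to -0.13). The model over NR5A1, a marker listed at 0, held 427 of these reads in shLSD1 and 521 in Blank. Without model reads, the peritubular and fibroblast sum rests largely on LUM, with 4710 reads in shLSD1 and 6098 in Blank. With them it had 12757 reads in shLSD1 and 16784 in Blank, a log2 ratio of -0.31 (-0.35 to -0.28). The model over DCN, a marker listed at 0, held 7199 of these reads in shLSD1 and 9908 in Blank. DES, with 726 reads in shLSD1 and 601 in Blank, had a ratio above 0. With model reads added, 1 of the 6 peritubular and fibroblast markers with at least 20 reads had a ratio above 0 and 5 below. The 7 lymphocyte markers found summed to 127 reads in shLSD1 and 210 in Blank, and the 4 macrophage markers found to 665 in shLSD1 and 646 in Blank. Their part in the ratios of the glycolytic genes was not tested.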

How the data were processed

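The authors deposited counts of reads per gene model, without normalization, and FPKM, which equals the count divided by model length and by a library total 0.461% (shLSD1) and 0.646% (Blank) above the listed sum. The submitters' processing notes name Bowtie 0.12.2 and the mouse builds mm8 and mm9, although the listed genes are chicken genes. The chicken build, the annotation release and the counting tool are not given in the sources used here. Of the 26656 models, 9548 were assembled by the authors. A further 4 columns of values fitted no label of a sample and were left out. A deposited table of the authors' own comparison (adjusted signal, fold changes and p-values) was not used.

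Log2 ratios used reads over library totals with a prior count of 0.5, and Clopper-Pearson 95% intervals cover counting error only. With 1 library per group (8245826 reads in shLSD1, 8731455 in Blank) no model across genes and no p-value was computed. Counts over all genes took those with 20 or more reads in all. The members and the gene lists were chosen with earlier results of these data known. Named genes are all members, the highest and lowest log2 ratio of each list among genes with at least 100 reads, any gene past 2-fold, and genes said to be named after their values were seen. Some items that this rule names are not reported here. Of the listed symbols, 4 were matched through older names in RefSeq (assembly GRCg7b, names only). Calculations were tested on simulated data with 200 changed genes. Alternatives were edgeR TMM, DESeq2 size factors, upper-quartile scaling, totals without the 20 most abundant or the mitochondrial genes, FPKM with a pseudocount of 0.1 or 1, a prior count of 5, other filters and folds, and added reads of overlapping models. Scaling factors came from edgeR 4.0.16 and DESeq2 1.42.0 under R 4.3.3, the other calculations from Python 3.11.15 with scipy 1.17.1, numpy 2.4.6 and pandas 2.3.3, and the plots from matplotlib 3.10.9.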

Additional observations from a re-analysis of the deposited data

How the results depend on the processing

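Each of the 8 members with reads kept the sign of its log2 ratio under all 9 alternatives. Added reads of overlapping models could not change these ratios, since no assembled model overlaps these 8 on the same strand. Prior counts and pseudocounts could hardly move them, since each had at least 6358 reads over both libraries. The kept signs under these settings are thus no test of the ratios. The ratios ranged from 0.30 to 0.34 for GAPDH, from 0.47 to 0.51 for ENO1 and from -0.13 to -0.089 for LDHB. Other scalings of the library totals shifted all ratios by only -0.012 to 0.026, and the member median, 0.096, was 0.12 with upper-quartile scaling. The counts of intervals above and below 0 were 6 and 1 under these scalings, except 5 and 1 with DESeq2 size factors. Scaling to GAPDH is not among the 9, and it put HK1, GPI, ALDOC, TPI1 and PFKL below 0. The counting interval of PFKL relative to the library total included 0, so its kept sign gives no direction. Members past the fold threshold were 0 higher and 0 lower in every setting except the lowest threshold (at least 25% higher), with 1 higher (ENO1) and 0 lower. GAPDH lay just under that threshold at 0.32 and passed it with edgeR TMM (0.33) and upper-quartile scaling (0.34), so that its side of the threshold turned on the scaling. Over all genes, 267 were at least 2-fold higher and 220 lower. They were 159 and 105 at a prior count of 5, 48 and 55 from FPKM plus 1, 2111 and 1847 with no filter, 11 and 15 with at least 200 reads, 850 and 771 at a fold of 1.5, and 1916 and 1997 at that lowest threshold. By construction these settings test other genes, use another threshold or weigh low counts differently. Totals without mitochondrial genes were added after the data were seen. The comparison of LDHA with LDHB between libraries could not be run, as LDHA is listed at 0. No paired analysis was possible because shLSD1 and Blank have a single library each. Depth limits PKM, PFKP and PDP1, with under 100 reads each, while for GAPDH and ENO1 the missing replicates are the limit.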
